A study of Mus musculus with 24 samples.

Results

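The first 3 h of retinoic acid (RA) in the BAP1-AID clone of mouse embryonic stem cells (ESCs) were examined by RNA-seq, with 4 libraries at 3 h of RA set against 4 libraries at 0 h. The clone and the hours of RA given in the library labels picked these 8 of the 24 libraries, and no measured value was used to choose them. At each time, 2 replicates were without indole-3-acetic acid (−IAA) and 2 were with it (+IAA), and the arm was a covariate of the comparison. All 8 libraries come from 1 monoclonal line of E14 ESCs. In these cells BAP1, a deubiquitinase that acts on ubiquitinated histone H2A, ends in an HA-AID tag, and TIR1 is stably overexpressed. In +IAA cells, the plant auxin IAA was added ahead of RA and leads TIR1 to the tagged BAP1 protein for degradation. The study asked whether BAP1, and in a second clone UTX, is needed when Polycomb-marked genes are switched on. Here the question is which functions and which transcription factors had moved by 3 h, the earliest time sampled. The RA medium had no leukemia inhibitory factor (LIF), so RA, the absence of LIF and the time spent in that medium cannot be told apart. The 0 h, 3 h and 6 h libraries of the UTX-AID clone, which has the tag at the N terminus of UTX and carries TIR1 as well, served only for comparison.

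RA is made from vitamin A and acts through the RA receptors RARα, RARβ and RARγ (Rara, Rarb, Rarg), which pair with RXRs on short direct repeats in DNA called RA response elements. An unliganded receptor holds co-repressors, and RA exchanges them for co-activators at genes that are already bound. The best known direct targets are the Cyp26 enzymes that hydroxylate RA and so remove it, the receptor gene Rarb, and the Hox genes at the early end of the Hoxa and Hoxb clusters, which give the embryonic axis its positional code. ESCs are a common model of this response because RA drives them out of pluripotency.

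The sequences below show the type of element named above at 3 of the genes that rose, each read from the mm39 genome. A DR5 was searched as 2 repeat units in the same direction with 5 bases between them, on both strands, where a unit is AGGTCA, its variant AGTTCA, the unit GGGTCA, or its variant GGTTCA, and the spacings of 2 bases (DR2) and 1 base (DR1) were searched in the same way. Capitals mark the DR5, and no other element is marked. For Cyp26a1 and Csn3, the only genes called higher with a DR5 in the window from 250 bases before to 50 bases after the annotated start site, the 250 bases before that start are given. The Cyp26a1 stretch is chr19:37685991-37686240 on the plus strand, with the DR5 on the opposite strand and its first base at −17 from the start.
Cyp26a1: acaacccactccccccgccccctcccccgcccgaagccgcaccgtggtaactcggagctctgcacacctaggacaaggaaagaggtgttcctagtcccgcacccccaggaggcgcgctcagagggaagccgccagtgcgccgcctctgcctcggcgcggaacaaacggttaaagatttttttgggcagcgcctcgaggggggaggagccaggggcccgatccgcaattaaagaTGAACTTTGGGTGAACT
The Csn3 stretch is chr5:88073188-88073437 on the plus strand, with the DR5 on the opposite strand and its first base at −98.
Csn3: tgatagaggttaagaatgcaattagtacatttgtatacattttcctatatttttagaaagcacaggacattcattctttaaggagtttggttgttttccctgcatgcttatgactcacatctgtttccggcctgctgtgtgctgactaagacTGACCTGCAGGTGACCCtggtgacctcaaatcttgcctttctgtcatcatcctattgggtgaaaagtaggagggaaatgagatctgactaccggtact
For Rarb, the DR5 with 6 bases on either side is given. The Rarb site is chr14:5894228-5894256 on the plus strand, within an annotated untranslated part of a Rarb exon, 298 bases after the GENCODE canonical start and 53 bases before the RefSeq start.
Rarb: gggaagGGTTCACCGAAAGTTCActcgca

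The counts of a library summed to between 48392851 and 52740738, and between 16090 and 16386 genes had at least 1 count. The detection floor was set at 3 counts, or 0.057 to 0.0632 CPM (counts scaled to library size with TMM factors). Replicates of a group correlated at a Pearson r of 0.984 to 0.986 across genes on the log2(count + 1) scale. The first principal component, with 42.2% of the variance, split the libraries by hours of RA, and the second, with 32.8%, by IAA arm. Of 10 markers of ESCs, including Pou5f1 and Dppa5a, 0 were called, and their summed level was 5260 to 5880 CPM at 0 h and 5600 to 6260 CPM at 3 h. Of 9 tested markers of fibroblasts, the usual feeder cells, Pdgfrb was called higher, while their summed level was 36 to 42.5 CPM at 0 h and 34.4 to 43.4 CPM at 3 h. Bap1 mRNA was at 98.3 to 103 CPM at 0 h and 96.5 to 106 CPM at 3 h, which checks nothing about IAA, since IAA removes the protein. No label says whether replicates are separate cultures, so the p-values measure the spread between these libraries, which may be technical.

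By 3 h, 316 of the 14863 genes tested were called higher (2.13%) and 79 were called lower (0.532%), or 395 in either direction (2.66%), with a call set at an adjusted p-value under 0.05 and a log2 fold change above 1 or below −1. All adjusted p-values are edgeR quasi-likelihood values, corrected by Benjamini-Hochberg across every gene tested. The median log2 fold change of all genes tested was −0.02, that of the genes called higher was 1.74, and that of the genes called lower was −1.34. Of the genes called higher, 17 had counts in a 0 h library and a log2 fold change above 5. The groups did not overlap (all 4 libraries at 3 h on one side of all 4 at 0 h) for 309 of the 316 and 73 of the 79, and among all genes tested this held for 6.59% upward and 4.29% downward. Of the genes called higher, 45.9% had a mean under 1 CPM at 0 h, and the filter and the call both bear on that share. In 17 genes called higher, no count was found in any 0 h library, and 3 counts in the shallowest 0 h library then allow a rise of at least 4.27-fold to at least 33.9-fold. In bulk RNA, fewer cells that express a gene and less RNA in each cell cannot be told apart. Without the size limit, 844 genes (5.68%) were higher and 575 (3.87%) were lower.

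**Figure D1:**
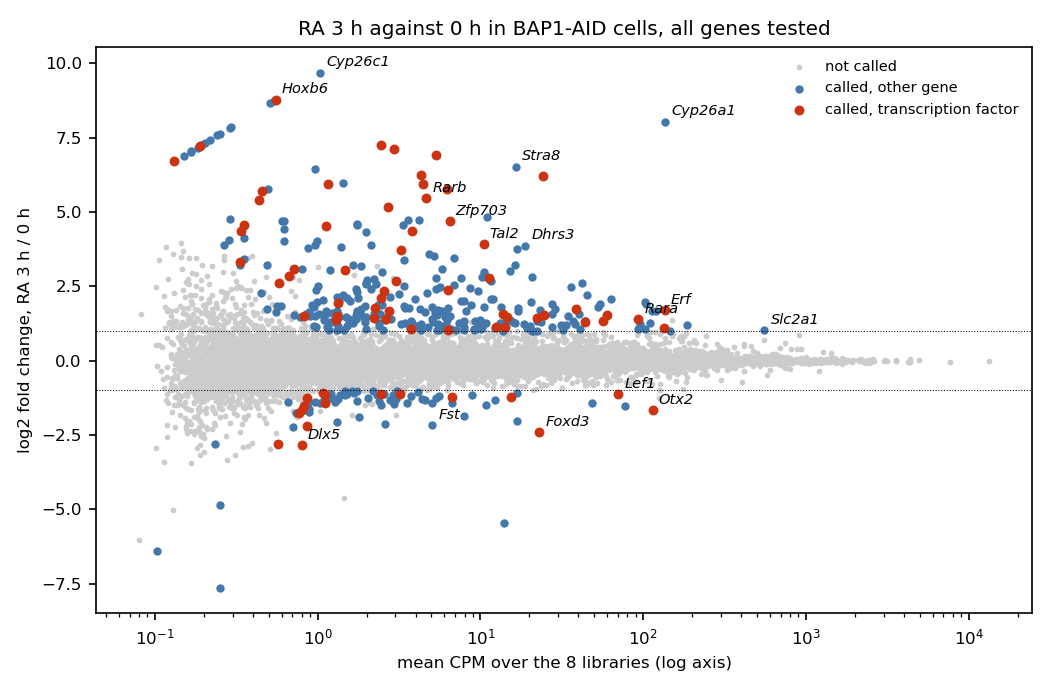
Log2 fold change at 3 h against 0 h of RA (vertical axis, from the edgeR fit) by mean CPM over the 8 libraries (horizontal log axis) for the 14863 genes tested in BAP1-AID cells. Blue points are called genes, red points are called transcription factors, grey points are the rest, dotted lines mark the size limit, and most called genes lie above 0. The fitted value of a gene with no count in one group depends on the prior count and is no bound.

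Transcription factors made up 55 of the 316 genes called higher (17.4%) and 17 of the 79 called lower (21.5%), whereas 626 of the 14863 genes tested (4.21%) were transcription factors. Among families by number called higher, the Hox genes came first with 16 of 22 tested. Next were 7 of 84 homeobox genes outside the Hox and TALE groups. GLI, ZIC, SNAI, SALL and other zinc finger genes also had 7, of 112. The forkhead genes had 3 of 27, the bHLH genes 3 of 67, and the SMAD, STAT, IRF, REL and NFAT group 3 of 31. The nuclear receptors had 2 of 32, the TALE genes 2 of 16 and the ETS genes 2 of 19. The E2F, MYB, RFX, NFI and NFY group had 2 of 27. Called lower were 5 of the 84 homeobox genes, 3 of 67 bHLH genes and 3 of 23 SOX and HMG genes. The SOX and HMG genes had 1 called higher. The Hox, forkhead, T-box, nuclear receptor, AP-2 and E2F groups had 1 called lower each. Of the 42 functional lists, 15 had no called member. Neither the lists nor the families hold 234 of the 316 genes called higher and 55 of the 79 called lower.

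**Figure D2:**
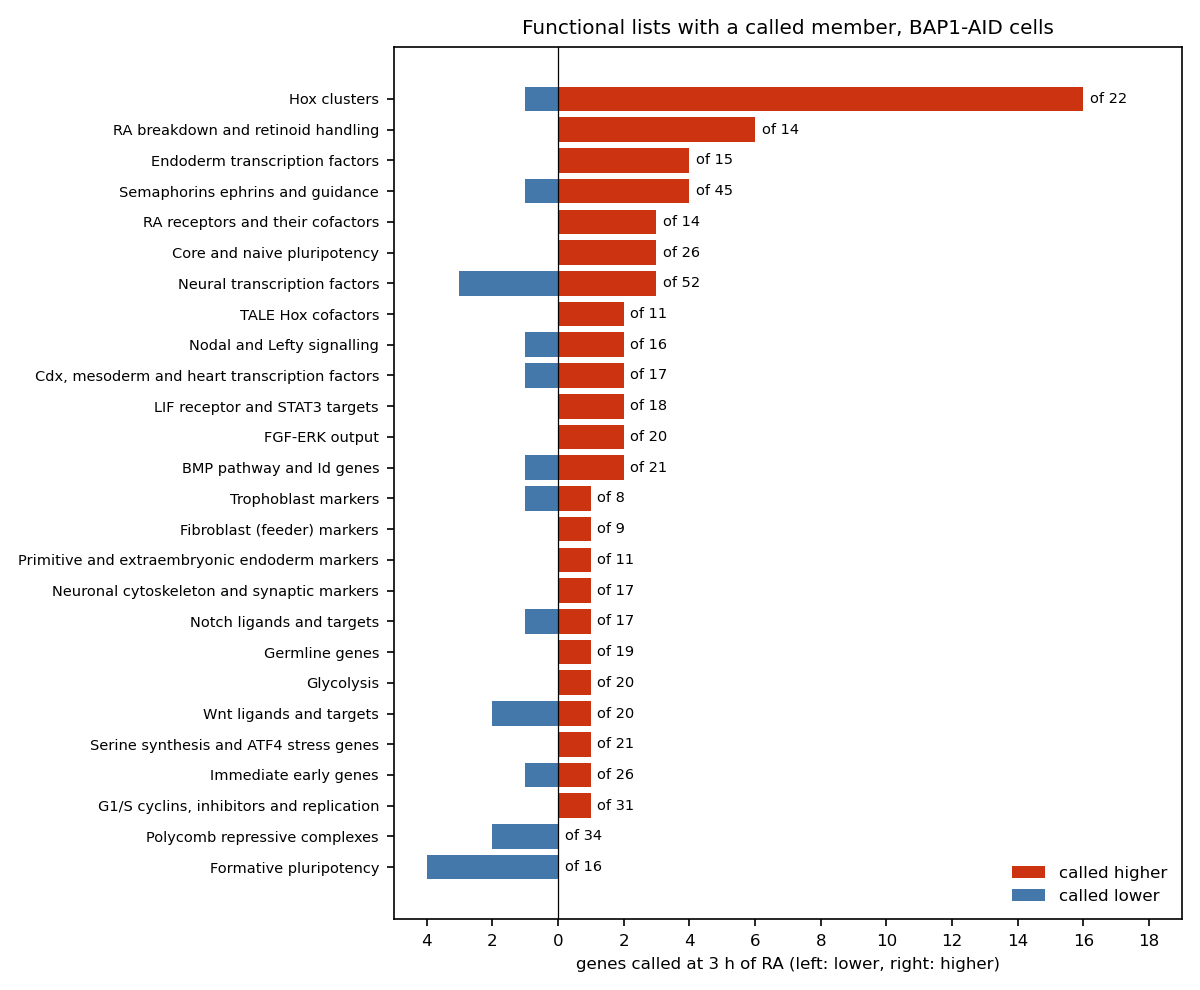
Number of genes called higher (red, to the right) and lower (blue, to the left) at 3 h of RA in each functional list with at least 1 called member, with the number of members tested written beside the bar. The Hox clusters stand at 16 of 22 and RA breakdown and retinoid handling at 6 of 14, while formative pluripotency has 0 higher and 4 lower of 16.

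The enzymes and carriers that handle RA were among the largest changes. Of 14 tested members, 6 rose and 0 were called lower, with a median log2 fold change of 0.45 against −0.02 over all genes. Cyp26a1 (chr19:37686241-37689984), which hydroxylates RA, was at 1.22, 1.09, 0.867 and 0.857 CPM in the 0 h libraries, listed here and below as −IAA replicates 1 and 2 and then +IAA replicates 1 and 2. At 3 h it was at 274, 249, 278 and 280 CPM. The groups lie far apart, and the rise was 263-fold (log2 fold change 8.04, SE 0.11, adjusted p = 5.64e-12), the smallest adjusted p-value of all genes. Per length of exon, Cyp26a1 went from 0.561 ± 0.0976 to 150 ± 7.94 CPM per kb (SD, n = 4).

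Its neighbour on chromosome 19, Cyp26c1, had no count in the 4 libraries at 0 h and stood at 2.38, 1.93, 2.29 and 1.71 CPM at 3 h, a rise of at least 33.9-fold (adjusted p = 2.75e-05). Cyp26b1, the remaining enzyme of the family, went from 0.38, 0.376, 0.154 and 0.265 CPM to 7.45, 6.77, 9.38 and 8.84 CPM (log2 fold change 4.74, SE 0.243). All 3 RA hydroxylases had thus risen by 3 h. On the scale of CPM per kb at 3 h, Cyp26b1 at 1.73 ± 0.257 and Cyp26c1 at 0.523 ± 0.0784 were far below Cyp26a1.

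Dhrs3, a reductase that turns retinaldehyde back into retinol, was at 1.88 to 3.01 CPM at 0 h and at 34.5, 35.6, 36.2 and 35.2 CPM at 3 h (log2 fold change 3.87, SE 0.121, adjusted p = 5.73e-09). The groups lie far apart here too. Stra6, the membrane transporter of retinol, rose from a mean of 0.132 to 3.37 CPM (log2 fold change 4.61). Crabp2, which carries RA to the nucleus, was at 8.56 ± 1.55 CPM and then 15.3 ± 1.29 CPM (SD, n = 4), higher at an adjusted p of 0.000865 but with a log2 fold change of 0.82 that is under the size limit. Rdh10, which makes retinaldehyde on the path to RA, was lower at an adjusted p of 0.0163 (log2 fold change −0.57), again under the limit. Crabp1, Fabp5, Rdh11, Dhrs4, Aldh1a2 and Rbp4 had log2 fold changes between −0.10 and 0.083 and adjusted p-values of 0.89 or more.

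Of 14 tested RA receptors and cofactors, 3 rose and 0 were called lower, with a median log2 fold change of 0.21. Rarb (chr14:5650540-6041094) was at 0, 0.0594, 0.328 and 0.489 CPM at 0 h and at 6.46, 7.88, 10.8 and 11.2 CPM at 3 h (log2 fold change 5.47, SE 0.404, adjusted p = 3.83e-06). The 2 +IAA libraries were above the 2 −IAA libraries at both times. Rara rose from 49.2, 53.1, 51.7 and 48.1 CPM to 131, 143, 137 and 134 CPM (log2 fold change 1.40, SE 0.0589). Rarg was higher at an adjusted p of 1.99e-05, from 145 to 165 CPM up to 238 to 251 CPM, with a log2 fold change of 0.62. The order of the receptors on the scale of CPM per kb nevertheless stayed the same, with Rarg at 94.4 ± 2.62, Rara at 42.5 ± 1.59 and Rarb at 2.82 ± 0.71 at 3 h, and no overlap between them.

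The RXR partners changed little in size. Rxrg was higher at an adjusted p of 0.016 with a log2 fold change of 0.52, Rxra had a log2 fold change of −0.20 (adjusted p = 0.206) and Rxrb one of −0.018 (adjusted p = 0.926). Nrip1, a co-repressor that binds liganded nuclear receptors, rose from 8.92, 9.96, 11.6 and 16.1 CPM to 62.2, 61.9, 81 and 82.9 CPM (log2 fold change 2.61, SE 0.0985, adjusted p = 1.99e-08). Its +IAA libraries were again the higher ones at both times. The co-repressor gene Ncor1 and the co-activators Ncoa1 and Ncoa2 did not pass the test, and Ncoa3 was at a log2 fold change of 0.39 (adjusted p = 0.0425).

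**Figure D3:**
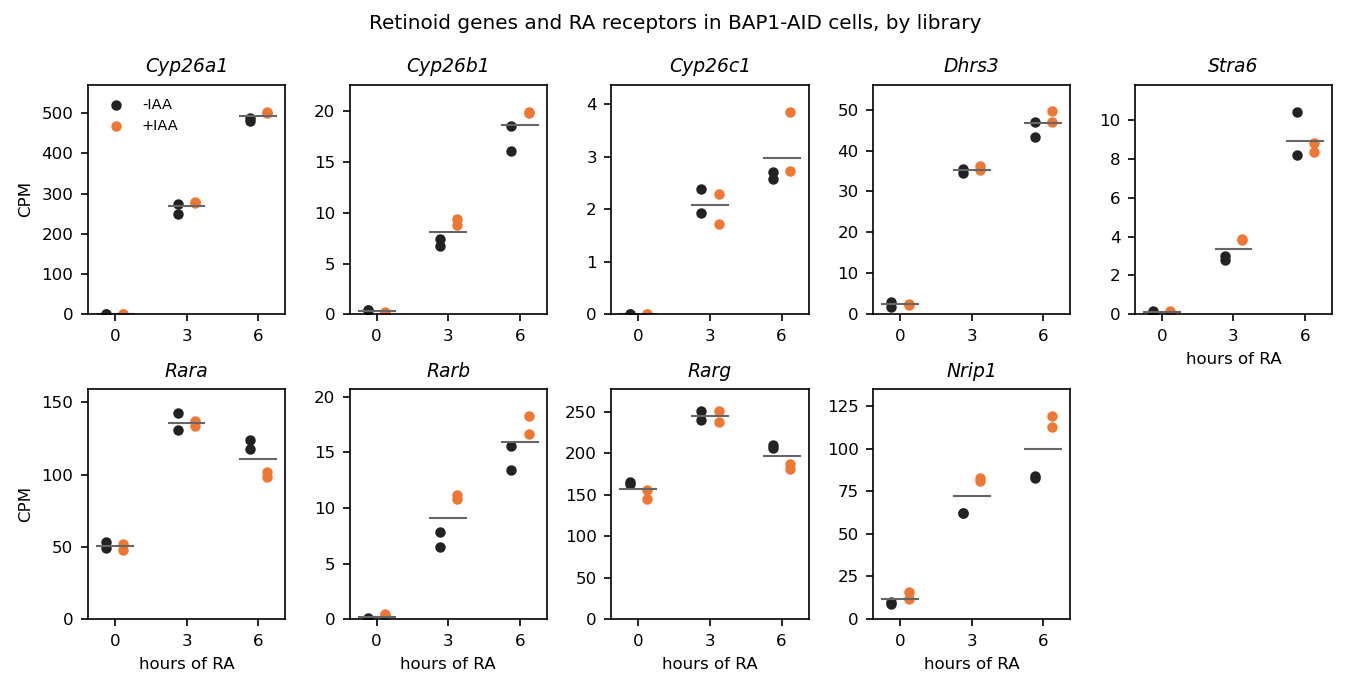
CPM of 9 retinoid and receptor genes in each BAP1-AID library at 0, 3 and 6 h of RA, with −IAA libraries in black, +IAA libraries in orange and the mean of the 4 libraries as a bar; each panel has its own linear axis from 0. Cyp26a1 went from 1.01 to 270 CPM at 3 h, and Rarg from 157 to 245 CPM.

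Of the 39 Hox genes in the table, 22 passed the filter, and of these 16 rose and 1 fell. Their median log2 fold change was 4.85, or 4.45 with Hoxb6, which had no count at 0 h, at its bound. The 17 Hox genes left out had a mean of at most 0.132 CPM at 3 h and were not tested, and 8 of them had no count in any 3 h library. Of these, Hoxd12, was at 0.116 to 0.198 CPM in the 4 libraries at 0 h. The rise was made up of 7 of 8 tested genes of the Hoxa cluster and 9 of 10 of the Hoxb cluster. In the Hoxc cluster 1 gene and in the Hoxd cluster 3 genes were tested, and 0 of these were called higher.

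Hoxb1, at the early end of its cluster on chromosome 11, had counts in 1 of 4 libraries at 0 h, where it was at 0.154 CPM, and was at 6.11, 5.43, 6.55 and 5.22 CPM at 3 h (log2 fold change 7.12, SE 0.554). Hoxa5 rose from at most 0.171 CPM to 10.2, 11.7, 9.72 and 10.4 CPM (6.93), and Hoxb5 from at most 0.119 CPM to between 3.7 and 5.55 CPM (7.27). Hoxb6 rose at least 18.1-fold, to between 0.315 and 1.45 CPM.

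The order of the genes by level differs from that by fold change. On the scale of CPM per kb at 3 h, Hoxa5 was at 5.6 ± 0.449 (SD, n = 4), Hoxb2 at 5.36 ± 0.709 and Hoxb4 at 4.79 ± 0.701, and the ranges of these neighbours overlap. Hoxb3 at 3.51, Hoxa3 at 3.27, Hoxb13 at 3.24, Hoxb1 at 2.79 and Hoxb5 at 2.57 came next, then Hoxa4 at 1.43 and Hoxa2 at 0.84. Hoxb6, Hoxa7, Hoxb7, Hoxa10 and Hoxb8 were between 0.341 and 0.629 CPM per kb. Hoxb13, which lies at the far end of its cluster and is normally a gene of the tail, went from 0.285, 0.277, 0.598 and 0.204 CPM to 8.49, 7.69, 6.02 and 6.85 CPM (log2 fold change 4.37, SE 0.277). Hoxb9, between Hoxb8 and Hoxb13, did not pass the test (log2 fold change 1.31, adjusted p = 0.128), nor did Hoxa9 (2.73, adjusted p = 0.115).

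Hoxd13 fell from 2.62, 3.07, 3.64 and 4 CPM to 0.926, 1.87, 1.95 and 1.5 CPM (log2 fold change −1.11, SE 0.225, adjusted p = 0.00811). The groups do not overlap, but without −IAA replicate 1 at 3 h the log2 fold change was no longer past the size limit and the call was lost. The calls of Hoxb7 (adjusted p = 0.0369) and Hoxa7 (adjusted p = 0.0123) were also lost when single libraries were left out, in 7 and 2 of 8 cases. The annotated span of Hoxa3 holds Hoxa4, Hoxa5 and Hoxa6 on the same strand, and Hoxa2 overlaps the antisense RNA Hotairm1. Since the strand setting of the counting is not given in the sources used here, reads of such pairs cannot be told apart, and the values of these genes are uncertain to that extent. Hotairm1 was at 0.112 CPM and then 1.86 CPM on average (log2 fold change 4.02), and Halr1, an RNA gene beside the Hoxa cluster, at 4.42 and 18.8 CPM (2.07).

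**Figure D4:**
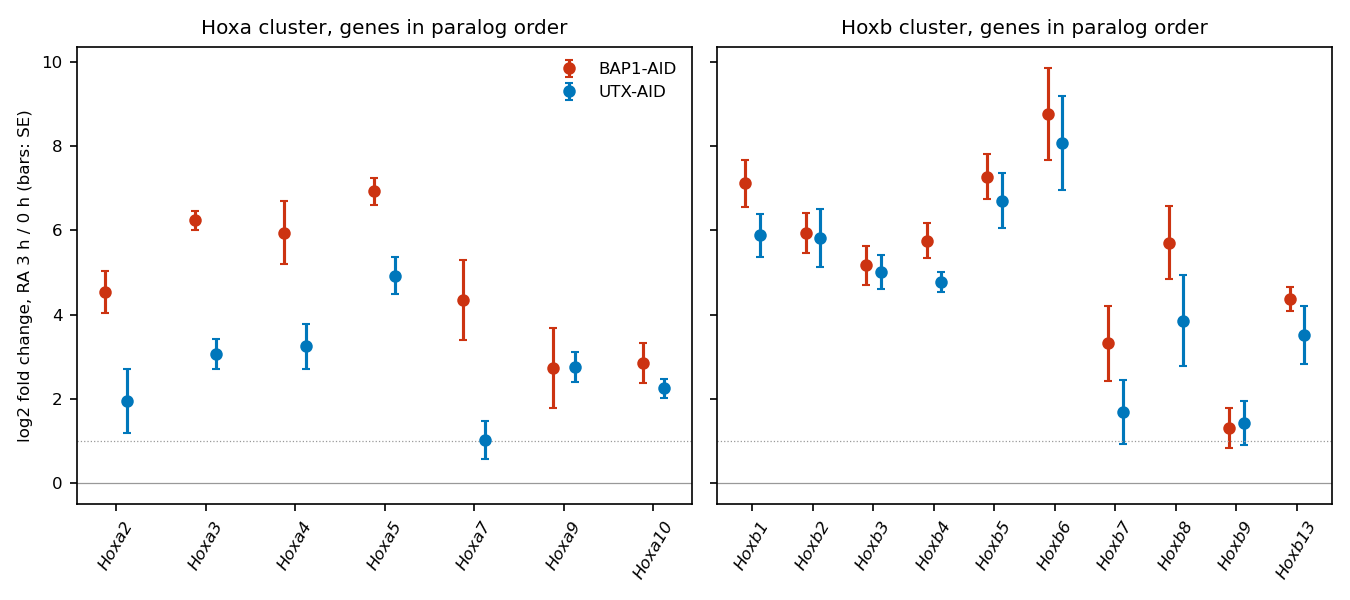
Log2 fold change at 3 h against 0 h of RA with its SE (bars) for tested genes of the Hoxa cluster (left) and Hoxb cluster (right) in BAP1-AID (red) and UTX-AID (blue) cells, in paralog order, with the size limit dotted. Hoxb1 was at 7.12 in BAP1-AID and 5.89 in UTX-AID cells, and Hoxb2 at 5.94 and 5.82; Hoxb6 had no count at 0 h in BAP1-AID cells, so its fitted value is no bound.

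TALE proteins bind DNA together with Hox proteins, and 2 of 11 tested genes of this list rose. Pbx2 went from 32.9, 29.4, 31.3 and 29 CPM to 87.5, 91.5, 90.9 and 89.5 CPM (log2 fold change 1.53, SE 0.0634, adjusted p = 4.07e-08). Meis2 went from a mean of 11.9 to 32.6 CPM (1.42, SE 0.086). These genes, unlike the Hox genes, were already present at 0 h.

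Outside the Hox clusters, 39 of 604 tested transcription factors rose and 16 fell. The genes with the largest ratios again began near 0. Zfp703, a zinc finger co-repressor, was at 0.437, 0.475, 0.27 and 0.694 CPM and then at 11.4, 10.7, 14.8 and 12.9 CPM (log2 fold change 4.70, SE 0.206, adjusted p = 6.18e-08). Tal2, a bHLH factor, went from 1.52, 1.17, 1.37 and 0.979 CPM to 16, 18.6, 20.7 and 23.3 CPM (3.92, SE 0.156, adjusted p = 2.85e-08). Bhlha15, also called Mist1, a bHLH factor of secretory cells, went from 2.86 to 19.9 CPM on average (2.77, SE 0.113). In each of these 3 genes the groups were far apart.

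Some endoderm factors rose to low levels. In the endoderm list, 4 of 15 tested genes rose and 0 were called lower. Foxa1, a pioneer factor of endoderm, went from 0.759, 0.475, 0.79 and 1.22 CPM to 4.38, 4.51, 6.42 and 5.83 CPM (log2 fold change 2.69, SE 0.205). Gata6 went from 0.171 to 0.416 CPM up to 1.75 to 2.98 CPM (3.06, SE 0.317). Gata4, another endoderm factor, was at 1.12, 1.56, 1.93 and 1.37 CPM at 0 h and at 0.821, 1.19, 0.546 and 0.982 CPM at 3 h (log2 fold change −0.78, adjusted p = 0.182).

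In the list of Cdx, mesoderm and heart factors, 2 of 17 were called higher and 1 lower, with a median log2 fold change of −0.35. Cdx1, a homeobox gene that acts upstream of Hox genes in the tail, had counts in 1 of 4 libraries at 0 h and was at 1.5, 0.856, 0.693 and 0.376 CPM at 3 h (log2 fold change 5.39, SE 0.882, adjusted p = 0.00199). Dlx3 was at 0 to 0.317 CPM and then 1.18 to 1.4 CPM (3.08), and Dlx4, beside it on chromosome 11, rose at least 4.27-fold to 0.23 to 0.331 CPM, a call that was lost when some single libraries were left out. Dlx5 went the other way, from 1.58, 1.35, 1.45 and 1.1 CPM to 0.0632, 0.0779, 0.567 and 0.188 CPM (−2.83, SE 0.566, adjusted p = 0.00739). Meox1, a mesoderm homeobox gene, rose at least 6.2-fold, and without +IAA replicate 2 at 3 h its adjusted p-value was 0.0571. Klf17, a germ cell and early embryo factor, was at 0.0297 and 0.677 CPM on average (4.58, adjusted p = 0.00853), and Irf5, an interferon regulatory factor, at 0.46 and 6.03 CPM (3.71, SE 0.307). Tfap2c, an AP-2 factor of trophoblast and germ cells, rose from 1.64 to 2.26 CPM up to 9.44 to 11.9 CPM (2.38, SE 0.144).

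Other factors were already well expressed and rose by smaller ratios. Erf, an ETS repressor that ERK keeps out of the nucleus, went from 69.5, 60.4, 57.9 and 64.7 CPM to 219, 217, 194 and 202 CPM (log2 fold change 1.70, SE 0.0672, adjusted p = 2.85e-08). Foxp1, a forkhead factor, went from a mean of 85.3 to 185 CPM (1.10), Sox13 from 31.8 to 82 CPM (1.34), and Zfp423, a zinc finger partner of RA receptors and SMADs, from 24.8 to 62.6 CPM (1.31). Bhlhe40, a bHLH repressor of the circadian clock, went from 17.6 to 60 CPM (1.74), and Hic1, a repressor that is often silenced in tumors, from 0.816 to 4.26 CPM (2.36). These 6 genes had groups that did not overlap.

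Among the 16 factors that fell, Otx2, Lef1 and Foxd3 had the highest means at 0 h. Foxd3, a forkhead factor of the early epiblast, was at 39.9, 40.6, 36.4 and 37.5 CPM and then at 8.44, 8.1, 6.97 and 6.37 CPM (log2 fold change −2.40, SE 0.0735, adjusted p = 5.73e-09). Otx2 (chr14:48894099-48911276), a homeobox factor of the formative state and the forebrain, was at 160, 177, 175 and 180 CPM and then at 49, 60, 54.2 and 57.7 CPM (−1.67, SE 0.0729, adjusted p = 5.92e-08). In both genes every 3 h library lay far below every 0 h library. Lef1, a transcriptional partner of β-catenin, fell from a mean of 95.9 to 44.5 CPM (−1.13), Myb from 21.4 to 9.37 CPM (−1.22) and Sox21 from 9.39 to 4.06 CPM (−1.21).

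The other factors that fell had means under 5 CPM at 0 h. Sox14, a neural SOX factor, went from 1 to 0.146 CPM (log2 fold change −2.80), Otx1 from 1.22 to 0.429 CPM (−1.52) and En1 from 1.2 to 0.394 CPM (−1.65). Tal1, from 1.41 to 0.308 CPM (−2.21), went against its relative Tal2. The calls of Tal1, En1, Alx1, Ascl2, Tfap2a, Nr4a2 and Hey1 were lost when some single libraries were left out.

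**Figure D5:**
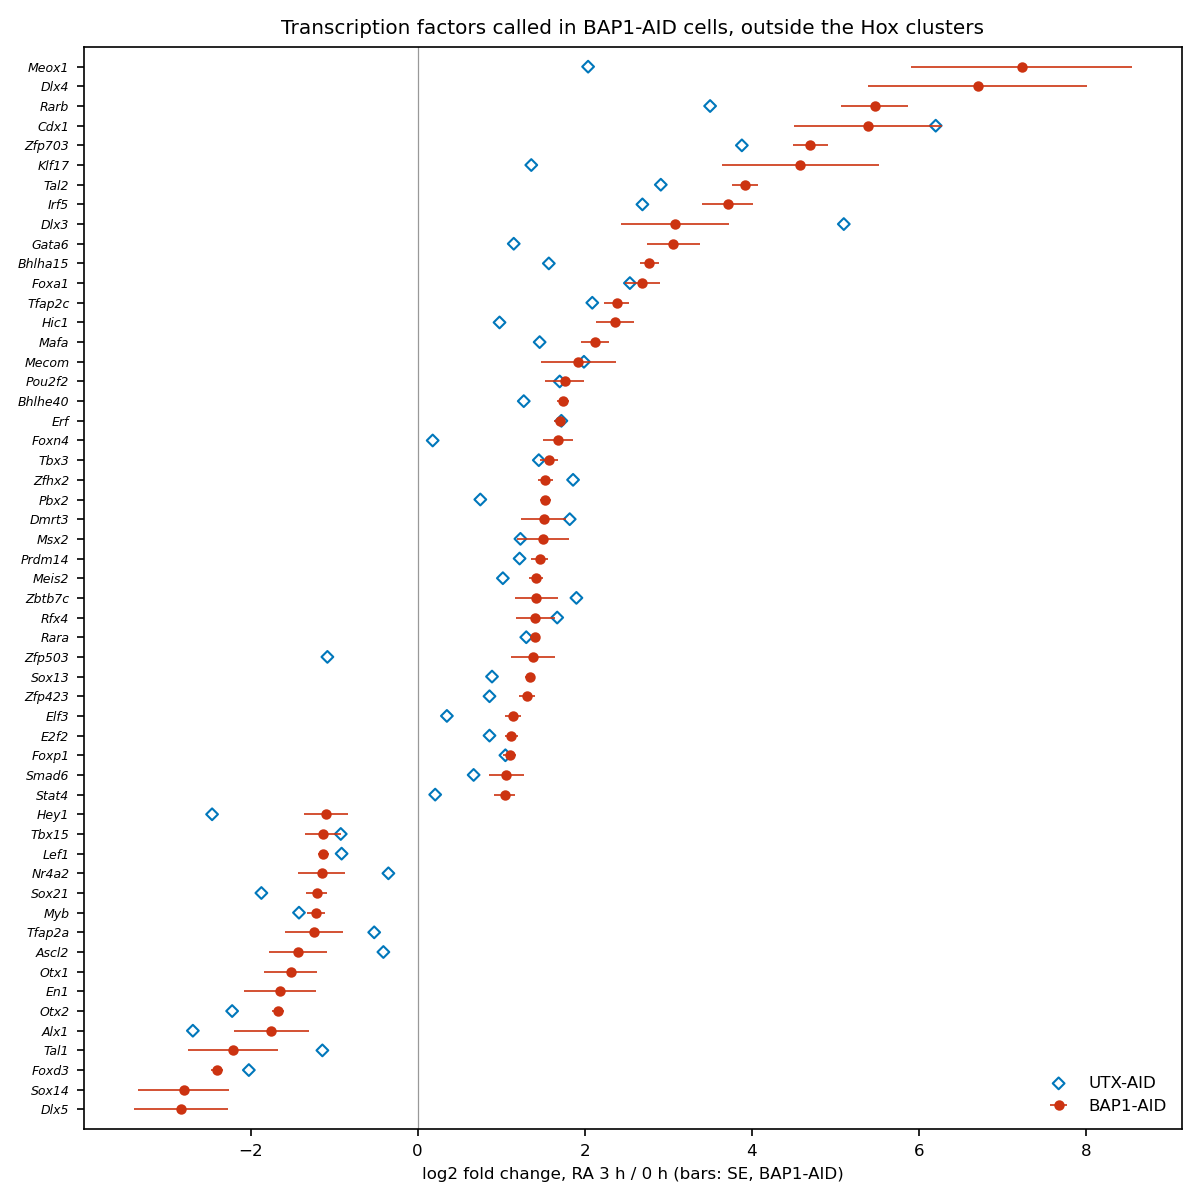
Log2 fold change at 3 h against 0 h of RA for 54 transcription factors called in BAP1-AID cells outside the Hox clusters, with BAP1-AID values as red points with SE bars and UTX-AID values as open blue diamonds where the gene was tested there. Zfp503 is the one gene called higher in BAP1-AID cells whose UTX-AID value is below 0, and Meox1 and Dlx4 had no count at 0 h in BAP1-AID cells, so their fitted values are no bounds.

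Pluripotency genes were divided. Of 26 core and naive pluripotency genes, 3 rose and 0 were called lower, with a median log2 fold change of 0.066. The 3 were Tbx3, from 7.76, 7.71, 5.65 and 6.18 CPM to 18.1, 22.7, 20.2 and 21.1 CPM (log2 fold change 1.57, SE 0.11), Prdm14, from 7.74 to 21.6 CPM on average (1.46, SE 0.1), and the DNA demethylase Tet2, from 56.5 to 134 CPM (1.23, SE 0.0683). Pou5f1, which encodes OCT4, was at 1431, 1380, 1250 and 1244 CPM at 0 h and at 1546, 1339, 1305 and 1308 CPM at 3 h (log2 fold change 0.03, adjusted p = 0.864). In formative pluripotency, the state that follows the naive one, 0 of 16 genes rose and 4 fell, and the median log2 fold change was −0.36. Beside Foxd3, Otx2 and Lef1, the growth factor gene Fgf5 fell from 16.1, 18.1, 18.4 and 17.4 CPM to 5.73, 8.72, 6.11 and 7.67 CPM (−1.34, SE 0.13). Without the size limit, 10 of the 16 were lower and 3 were higher.

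Of 18 tested genes in the list of the LIF receptor and STAT3 targets, 2 rose and 0 were called lower, and the median log2 fold change was 0.20. Without the size limit, 6 were higher and 2 were lower. The RA medium lacked LIF, and any effect of that cannot be told apart from RA here. Pim1, a kinase, went from 48.6, 45.2, 37.8 and 42.4 CPM to 172, 171, 158 and 157 CPM (log2 fold change 1.90, SE 0.0623, adjusted p = 8.21e-09), and Bcl3, an IκB-like cofactor, from 1.64 to 5.27 CPM on average (1.77). Cntfr, a receptor subunit that shares gp130 with the LIF receptor, rose from 19.1, 21, 26.2 and 24.4 CPM to 81.9, 84, 86.2 and 89.6 CPM (1.90, SE 0.0712). The receptor tyrosine kinase Kit rose from 24.1 to 103 CPM (2.06, SE 0.0931).

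Feedback and ligand genes of several signalling routes moved in part. Dusp9, a phosphatase that switches off ERK, went from 39.8, 43.3, 42.7 and 39.6 CPM to 163, 158, 171 and 166 CPM (log2 fold change 1.97, SE 0.0578, adjusted p = 5.73e-09). Dusp5 went from 8.05 to 26.2 CPM (1.68) and Phlda1 from 3 to 9.13 CPM (1.59), which made 2 of 20 in the FGF-ERK list. In the Nodal and Lefty list 2 of 16 rose and 1 fell. Lefty1, an inhibitor of Nodal, went from 73.7, 59.6, 48.5 and 46.3 CPM to 238, 186, 152 and 161 CPM (1.67, SE 0.0918), Inhbb, an activin subunit, from 3.09 to 20 CPM (2.67), and Fst, which traps activin, fell from 8.75, 8.48, 7.27 and 8.48 CPM to 1.12, 1.91, 2.58 and 1.92 CPM (−2.17, SE 0.203). The activin subunit and its trap thus moved in opposite directions.

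Wnt8a, a ligand of the primitive streak, rose from 0.759, 0.772, 0.771 and 0.938 CPM to 9.16, 9.81, 9.32 and 9.86 CPM (log2 fold change 3.53, SE 0.132), while Wnt5a fell from 5.14 to 2.31 CPM (−1.17), a call lost without −IAA replicate 1 at 3 h, and Lef1 made the second of 2 called lower among 20 Wnt genes. Notch4 rose from 4.62 to 16.4 CPM (1.80) and Hey1, a Notch target, was called lower, of 17 Notch genes with a median of −0.32 and with 1 higher and 5 lower at any size. In the BMP list, Msx2 and Smad6 were called higher and Dlx5 lower, of 21, and the call of Smad6 was lost without any of 3 single libraries. Among 45 semaphorins, ephrins and other guidance genes, 4 rose and 1 fell. They include the ephrins Efnb3, from 2.55 to 8.5 CPM (1.71), and Efnb1, from 2.74 to 8.04 CPM (1.53), and Efna3, which fell from 3.94 to 1.64 CPM (−1.32). In the hedgehog list, 0 of 12 were called, and Ptch1, its receptor and target, was at 202 to 253 CPM and then 184 to 263 CPM (adjusted p = 0.954).

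Some genes with the largest changes belong to none of these groups. Stra8, a germ cell gene that RA is known to induce ahead of meiosis, was at 0.228, 0.574, 0.193 and 0.388 CPM and then at 28.4, 31.5, 34.4 and 36.1 CPM (log2 fold change 6.53, SE 0.204, adjusted p = 5.73e-09). It was the 1 called gene of 19 germline genes. Csn3, which encodes the milk protein κ-casein, went from 0.19, 0.238, 0.231 and 0.367 CPM to 5.69, 6.03, 8.12 and 7.88 CPM (4.72, SE 0.186). Adgra2, an adhesion receptor that works with Wnt ligands, went from 0.755 to 21.2 CPM (4.83), and Aqp3, a water and glycerol channel, from 3.46, 3.33, 2.91 and 2.96 CPM to 31.6, 29.7, 26.7 and 30.6 CPM (3.20, SE 0.0846, adjusted p = 3.8e-09). Arg1, an arginase, was at 0 CPM in 3 of 4 libraries at 0 h and at 1.81 to 3.36 CPM at 3 h (5.97), and Oprd1, an opioid receptor, went from 0.265 to 6.45 CPM (4.56). Slc2a1, the main glucose transporter, was already high at 0 h and went from 369, 365, 350 and 354 CPM to 785, 734, 735 and 739 CPM (1.03, SE 0.048), a value of 0.98 when GC content and transcript length were corrected for.

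Downward, Zfp608, a zinc finger gene, fell from 25.9, 27.6, 27.4 and 26.2 CPM to 5.79, 7.63, 7.28 and 5.91 CPM (log2 fold change −2.03, SE 0.102, adjusted p = 1.69e-07), and Vrtn, which is known for its effect on vertebra number, from 70.2 to 26.6 CPM (−1.43). Slc35d3 fell from 12.3 to 3.46 CPM (−1.85), and Bdnf, a neurotrophin, from 2.83 to 0.782 CPM (−1.88). Slitrk3, a synaptic adhesion gene, had 0.342, 0.218, 0.443 and 1 CPM at 0 h and no count in any 3 h library, which is at least 7.92-fold lower. Rsc1a1 was called lower with 32.4, 0.337, 35.4 and 40.4 CPM at 0 h and 1.79, 0.0584, 0.168 and 0.355 CPM at 3 h, so 1 of the 0 h libraries lay within the range of the 3 h libraries, and it was back at a mean of 38.1 CPM at 6 h.

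Several lists, among them housekeeping functions, had no called gene, while 2.66% of all genes tested were called. In a short list, 0 called genes is near that share. The lists with 0 called members include 85 cytoplasmic ribosomal proteins (median log2 fold change 0.025), 80 nuclear genes of oxidative phosphorylation (0.016), 37 mitotic genes (0.019), 25 genes of MYC and ribosome production (−0.039), 24 of cholesterol synthesis (−0.059), 23 ER chaperones and heat shock genes (0.069, with 7 higher and 0 lower at any size), 19 p53 targets (0.029), 14 interferon-stimulated genes (0.12), 58 histone genes (−0.017) and 11 markers of 2-cell-like cells (0.12). Of 26 immediate early genes, Dusp1 was called higher and Nr4a2 lower, with a median of −0.44 and with 3 higher and 10 lower at any size, and both calls were lost when some single libraries were left out. In the list of Polycomb complexes, 0 of 34 rose and 2 were called lower, with 7 higher and 6 lower at any size, among them Cbx8, from 2.83 to 1.23 CPM (−1.25). None of 25 genes of the BAP1, UTX and MLL3/4 complexes was called. Of 52 neural transcription factors 3 were called higher and 3 lower, with 4 higher and 12 lower at any size and a median of −0.18, and of 17 neuronal cytoskeleton and synaptic genes Elavl3 was called higher, from 3.24 to 7.73 CPM (1.22).

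The −IAA and +IAA arms were set against each other by the interaction of arm and time. Of 15323 genes tested, 0 were called (0%) with edgeR, 916 had an unadjusted p under 0.05 (5.98%), and the smallest adjusted p was 0.184. DESeq2 called 3 genes with a larger and 5 with a smaller change in +IAA cells. All 316 genes called higher and all 79 called lower moved the same way in both arms, as differences of log2(mean CPM + 0.5). These genes were called from the libraries of both arms together, so the shared sign was largely fixed in advance. The medians that follow are over the same genes. The median difference of the genes called higher was 1.34 in −IAA and 1.36 in +IAA cells, and that of the genes called lower was −0.94 and −1.03. Of the 316, 24 had an unadjusted p under 0.05 for the difference between arms, and of the 79, 8 did. A p-value that misses the threshold does not show that the arms responded alike.

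UTX-AID cells give the same contrast in 8 other libraries. There, 215 of 15361 genes were called higher (1.4%) and 40 were called lower (0.26%). Of the 308 genes called higher in BAP1-AID that were tested in UTX-AID cells, 152 were called higher there too (49.4%) and 299 had the same sign, with a median of 1.20, and 73.8% of the 206 tested genes called higher in UTX-AID cells were called in BAP1-AID cells. Of 70 tested genes called lower, 18 were called again (25.7%) and 60 had the same sign, with a median of −0.90. Of the 54 tested transcription factors that rose, 36 were called again and 53 had the same sign, and of 13 that fell, 5 were called again and 13 had the same sign. In UTX-AID cells 6 of 14 genes of RA handling and 3 of 14 receptors and cofactors were called higher, as many as in BAP1-AID cells. For Hox genes it was 14 of 28 (median 2.10) against 16 of 22 (median 4.85), but the genes tested differ. Only the UTX-AID set holds Hoxa11, Hoxc4, Hoxd4, Hoxd8, Hoxd9 and Hoxd10, with log2 fold changes from −2.46 to 1.93. In the Hoxb cluster, with the same 10 genes tested, 8 were called (median 4.90) against 9 (median 5.74). In the Hoxa cluster it was 6 of 9 (median 2.76) against 7 of 8 (median 5.25). Guidance genes had 1 higher and 0 lower against 4 and 1, and the BMP list 0 and 0 against 2 and 1. Fewer genes were called in UTX-AID cells over all genes too. The test of the difference between clones, given next, called no member of either list. The test of the difference between clones called 24 of 16010 genes (0.15%) with a larger log2 fold change in BAP1-AID cells and 1 with a smaller one (0.00625%), and Hoxa3 and Stra8 are among the 24.

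The 6 h libraries of the same clone show how far the early genes went on, though this contrast shares the 3 h libraries with the main one, so values are given side by side. From 3 to 6 h, 66 of 14833 genes were called higher (0.445%) and 19 were called lower (0.128%). Cyp26a1 stood at 1.01, 270 and 493 CPM on average at 0, 3 and 6 h, Stra8 at 0.346, 32.6 and 121 CPM, and Zfp703 at 0.469, 12.4 and 33.2 CPM. Others were near their 6 h level by 3 h. Tal2 stood at 1.26, 19.6 and 17.3 CPM, Wnt8a at 0.81, 9.54 and 10.6 CPM, Pim1 at 43.5, 164 and 162 CPM, and Foxd3 at 38.6, 7.47 and 6.83 CPM. Rara at 50.5, 136 and 111 CPM and Erf at 63.1, 208 and 178 CPM had lower means at 6 h than at 3 h, without a call. Of the 55 transcription factors that rose by 3 h, 18 were called higher again from 3 to 6 h and 0 lower, and of the 17 that fell, 0 were called in either direction. Below the size limit, Otx2 went on from 55.2 to 32.2 CPM (log2 fold change −0.78, adjusted p = 0.000667) and Lef1 from 44.5 to 24.2 CPM (−0.88, adjusted p = 3.71e-05).

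The share of genes with a DR5 near the start was counted over all genes with an annotated start site. In the window from 250 bases before to 50 bases after the start, a DR5 was in 2 of 305 genes called higher (0.656%, Cyp26a1 and Csn3), in 0 of 77 called lower, in 4 of 13948 not called (0.0287%) and in 81 of all 77650 annotated genes (0.104%). Within 5 kb on either side, a window chosen after the first result was seen, the shares were 25 of 305 (8.2%), 3 of 77 (3.9%), 512 of 13948 (3.67%) and 3.7% of all annotated genes. Among the 75 genes with a log2 fold change over 3, 12 held one (16%), including Cyp26a1, Csn3, Arg1, Rarb and Dlx4. For the DR2, the shares within 5 kb were 18.7% of genes called higher and 12% of those not called, and for the DR1 10.8% and 8.25%. A match is a description of the letters, not evidence of binding, and most of the genes that rose held no DR5 in either window.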

How the data were processed

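Polyadenylated RNA was sequenced from 24 libraries of BAP1-AID and UTX-AID ESCs. The authors deposited 1 table of estimated counts per gene (whole numbers) made with StringTie 2.2.1 after HISAT2 2.2.1 alignment to mm39; SAMtools 1.19 and deepTools 3.5.4 are also in the submitters' processing notes. The gene annotation, strand setting and read length are not given in the sources used here. An estimate from transcript assembly can split reads between overlapping or near-identical genes, so values of such genes are uncertain.

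Counts were used as deposited. Some genes are not reported here, though counts over all genes and lists hold them. edgeR 4.0.16 (R 4.3.3, limma 3.58.1) was run with TMM scaling, the filterByExpr filter (minimum count 10, minimum total 15) and a quasi-likelihood test with IAA arm and time as terms. Genes were called at an adjusted p (Benjamini-Hochberg, two-sided) under 0.05 and a log2 fold change over 1 in size. Interaction terms tested arm and clone. CPM values use TMM factors of all 24 libraries, and the SD is between libraries. Of the 26264 genes, 5222 had 0 counts in every library. On simulated counts with 200 genes changed by 2 on the log2 scale, the main test recovered 195 and called 0 unchanged genes among 14600, the test between arms 175 and 5 among 14830, and the test between clones 190 and 4 among 15337.

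Libraries were grouped by their labels. The libraries compared and the gene lists were chosen with earlier results of these data known. Named genes were, by rule, the called transcription factors (15 higher, 10 lower) and other genes (15 higher, 10 lower) with the largest changes, no overlap between groups and a mean above 1 CPM on 1 side; the 5 smallest adjusted p-values; up to 4 called members of each list, or 2 members of highest level where none was called; the RARs and RXRs; and genes the study names. Other called genes, among them Dlx3, Klf17, Erf, Foxp1, Kit, Cntfr and the remaining Hox genes, were added after their values were seen. Start sites, gene spans and sequences came from GENCODE vM39 and mm39, which gave 1 locus for 96.4% of genes tested. The RefSeq promoter table matched 73.7% of genes called higher, so the check on it was void and the mm39 windows took its place. Alternatives were RLE size factors, DESeq2 1.42.0, no filter, all 12 BAP1-AID libraries in 1 fit, a replicate block, each arm alone, GC and length offsets, no size limit, and each library left out; GC and length offsets and the fit without a size limit were chosen after seeing the data.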

Additional observations from a re-analysis of the deposited data

Results flagged for a closer look

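The change over the first 3 h of RA was set against the same change in UTX-AID cells by the interaction of clone and time (edgeR, adjusted p under 0.05 and a difference over 1 on the log2 scale). This test marked 24 genes with a larger log2 fold change in BAP1-AID cells and 1 gene with a smaller one, and no other result was marked. Each clone is 1 monoclonal line, and the tag and the clone cannot be told apart. Outliers within groups were not tested, since every group has 2 libraries.

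Of the 24, 4 are transcription factors. Hoxa3 went from a mean of 0.108 to 8.46 CPM in BAP1-AID and from 0.459 to 3.76 CPM in UTX-AID cells, a difference in log2 fold change of 3.18 (adjusted p = 0.00181). Its mean was thus higher in UTX-AID cells at 0 h and lower there at 3 h. At 0 h the libraries overlap, with 0.0578 to 0.133 CPM in BAP1-AID and 0.0996 to 0.62 CPM in UTX-AID cells. The lowest of these lie near the detection floor, and the 0 h levels were not tested between clones. Foxn4 went from 1.28 to 4.2 CPM and from 7.43 to 8.37 CPM, with a difference of 1.51, and Bhlha15 from 2.86 to 19.9 CPM and from 4.84 to 14.4 CPM, with a difference of 1.21. The antisense RNA Hotairm1 differed by 2.76 and Halr1 by 1.11, both in the region of the Hoxa cluster.

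In other genes the clones met at 3 h from unequal starting levels. Stra8 went from 0.346 to 32.6 CPM in BAP1-AID and from 3.2 to 29.3 CPM in UTX-AID cells, a difference of 3.34 (adjusted p = 4.82e-07). Aqp3 went from 3.16 to 29.6 CPM and from 6.99 to 29.5 CPM, a difference of 1.13. Kcnk6 differed by 1.34, from 1.99 to 11.7 CPM against 6.03 to 13.9 CPM. In a further set the starting levels were near each other: Wnt8a went from 0.81 to 9.54 CPM against 0.771 to 3.28 CPM, a difference of 1.46, Homer2 from 8.09 to 33.1 CPM against 7.68 to 10.8 CPM, a difference of 1.50, Ccdc88b from 1.12 to 12.6 CPM against 0.947 to 3.54 CPM, a difference of 1.56, and Aurkc from 2.51 to 17.8 CPM against 2.65 to 7.6 CPM, a difference of 1.30. Inhbb, from 3.09 to 20 CPM against 20.1 to 49.6 CPM, differed by 1.37.

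Other genes with a larger value in BAP1-AID cells were Mmp9 with a difference of 2.94, Nt5e with 1.60, Tmem125 with 1.26, Llgl2 with 1.13, Aldh3a2 with 1.10, Rusc1 with 1.10, and Cdk18, Clgn and Gadd45b with 1.00 each. Wdr93 had a fitted difference of 6.33, which is no bound, since it had no count in BAP1-AID cells at 0 h, where it went to 0.332 CPM, against 0.793 to 1.27 CPM in UTX-AID cells. The gene with the smaller value was Rsc1a1, at a difference of −8.05 (adjusted p = 0.05), which at 0 h in BAP1-AID cells was at 32.4, 0.337, 35.4 and 40.4 CPM. In UTX-AID cells it ranged from 0.113 to 21.9 CPM at 0 h and from 0.254 to 38.7 CPM at 3 h, so it varied widely between libraries there too. How reads were assigned to this gene was not tested. The calls of Aqp3, Mmp9, Hotairm1 and Rsc1a1 were lost when some single libraries were left out.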

How the results depend on the processing

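No log2 fold change of a gene named here that was called changed sign under any alternative run. With the −IAA libraries alone, 203 genes were called higher and 26 lower, 6 of them transcription factors, and with no size limit 844 were higher and 575 lower, with 95 and 74 transcription factors. Of the 395 calls, 208 were shared with the −IAA libraries alone (229 called), 331 with the +IAA libraries alone (461 called), 389 with DESeq2 (474 called) and 372 with GC and length offsets (394 called). DESeq2 called 3 genes higher and 5 lower between arms, 46 and 13 between clones, and 31 lower from 3 to 6 h. The count of genes with a smaller change in BAP1-AID than UTX-AID cells was 0 with RLE factors, 4 with no filter and 2 with the replicate block. The causes were not tested.

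With single libraries left out, the genes called higher were 279 to 322 and those called lower 60 to 89, with 51 to 57 and 11 to 18 transcription factors (11 without −IAA replicate 2 at 0 h) and 14 to 16 Hox genes higher. Between arms the range was 0 to 3 higher and 0 to 4 lower, with 3 and 4 reached without −IAA replicate 2 at 3 h. The UTX-AID range was 191 to 208 higher and 29 to 42 lower, the clone range 19 to 29 and 1 to 4 (4 without the BAP1-AID −IAA replicate 1 at 3 h), and the range from 3 to 6 h 53 to 90 and 13 to 25. Over named genes in the main comparison, 178 of the gene and setting pairs lost the call and 0 gained one. The other 2619 had the same status in both runs, which includes genes called in neither.

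Deviations of same-numbered libraries correlated at −0.0566 to 0.333 over 6 pairs of groups, which does not settle whether replicate numbers pair the samples. No label settles it either. With the replicate number as a block, 309 genes were called higher and 76 lower, 377 of them shared with the fit without it, and Hoxb7 and Tfap2a were no longer called. The 17 Hox genes under the count filter were not tested.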

Other observations

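Genes called higher at 3 h often lay near each other. Of the 305 genes called higher with an annotated start site, 77 (25.2%) had another such gene within 100 kb, against 755 of 14025 other genes tested (5.38%), and without the Hox clusters and their antisense RNAs the numbers were 58 of 287 (20.2%) and 751 of 14019 (5.36%). These shares are a description with no test, and overlapping genes can share reads. The called genes fell into 26 such stretches. The Hoxa stretch holds 12 called genes between start sites at chr6:52056776-52217834, and the Hoxb stretch holds 10 at chr11:96085106-96256578, Hoxb13 at one end and Hoxb1 at the other. Outside these, Cyp26c1 lies beside Cyp26a1, Notch4 beside Pbx2, Pou2f2 beside Erf, Dlx3 and Dlx4 beside the integrin gene Itga3, and Cdx1 beside Pdgfrb.

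Some gene families, chosen after their values were seen, had called members at 3 h. Over all genes tested, 2.13% were called higher and 0.532% lower. Of 21 dual-specificity phosphatases, which remove phosphate from MAP kinases, 4 were called higher (Dusp9, Dusp5, Dusp14 and Dusp1) and 0 lower. Of 14 chemokines and their receptors, 3 were called higher (Cxcr3, Ackr3 and Ccl25), with a median log2 fold change of 0.56. Of 12 fibroblast growth factors, Fgf1 was called higher and Fgf5 and Fgf8 lower, with a median of −0.47. Fgf1 went from a mean of 6.09 to 14.8 CPM (log2 fold change 1.25) and Fgf8 from 1.84 to 0.706 CPM (−1.40). Of 53 potassium channel genes, 4 were called higher and 0 lower. For 19 integrin genes these counts were 2 and 0, and for 252 solute carriers 6 and 1. Among 1007 gene models with Gm or Rik symbols, 14 were called higher and 3 lower.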
